A study of Mus musculus with 7 samples.

Results

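Adgrg1, Adgrf1, Bst1, Steap4, Tmem98, Nedd9, Myl10 and Arpp21 are 8 genes that were expressed in preleukemic B-cell precursor (BCP) cells of Eμ-Ret mice and were lower in overt leukemia. They were picked by their own values: each is well expressed in all 4 preleukemic samples and lower in all 3 leukemic samples. They are 8 of the 24341 genes in the deposited table and 8 of the 10541 genes that passed the filter on low values, and all 8 passed it. Because this contrast chose them, their levels are given as a description and without a test.

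The study asked which pathways change as preleukemia becomes leukemia. BCP cells were taken from spleens of mice hemizygous for the Eμ-Ret transgene (Emu-Ret hemizygote) on a BALB/c background, a Ret fusion oncogene driven by the immunoglobulin heavy chain enhancer. The preleukemic group held 4 samples from young, healthy mice and the leukemic group held 3 samples from older, moribund mice with overt disease. Cells were sorted for BP-1, the product of Enpep, and stranded mRNA libraries were sequenced. The paper's methods describe sorting for preleukemic cells, while most leukemic spleens in its culture work were used without enrichment. They do not say which applies to the sequenced leukemic samples, so the 2 groups may differ in purity. All 7 samples carry the transgene and no sample comes from a transgene-negative mouse, so the values do not compare either stage with normal precursors, and age differs along with disease.

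A B-cell precursor is a bone marrow stage at which a cell rearranges its immunoglobulin genes and tests the product through the surrogate light chain. Transcription factors such as Pax5 and Ebf1 hold the cell in this program, and the membrane carries stage-specific receptors and enzymes by which the stages are recognized. Loss or change of these surface and adhesion genes is a known feature by which leukemic blasts are told from normal precursors.

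Levels are FPKM, fragments scaled to the length of the transcript and to sequencing depth, in which the table lists no value under 0.01. The low values of single-transcript genes stepped in whole fragments, which gave depths of 13550000 to 14650000 fragments in the preleukemic and 15300000 to 16000000 in the leukemic samples. Group differences are leukemic minus preleukemic on the log2(FPKM + 1) scale, which understates the change of genes near or under 1 FPKM. Of the 10541 genes, 17.1% lay lower in every leukemic than in every preleukemic sample, and so did 18.6% of the 8219 genes with at least 5 FPKM in all preleukemic samples. The groups of all 8 genes were apart by construction, and nothing is read from that count.

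The gene starts are shown for the 5 genes whose RefSeq start (GRCm38.p6) lies within 100 bases of the deposited one, since genes that are low in the same samples may be read side by side. Each run holds the 250 bases before the start on the plus strand, 5′ to 3′, and capitals mark letters that match one of 8 short motifs of B-lineage and blood factors on either strand.
Steap4 (chr5:7960222-7960471, plus strand): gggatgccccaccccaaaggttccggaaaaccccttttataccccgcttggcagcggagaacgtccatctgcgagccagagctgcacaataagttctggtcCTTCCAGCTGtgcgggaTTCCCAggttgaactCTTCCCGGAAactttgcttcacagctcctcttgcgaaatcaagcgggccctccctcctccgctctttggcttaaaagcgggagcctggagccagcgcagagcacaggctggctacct
Myl10 (chr5:136692896-136693145, plus strand): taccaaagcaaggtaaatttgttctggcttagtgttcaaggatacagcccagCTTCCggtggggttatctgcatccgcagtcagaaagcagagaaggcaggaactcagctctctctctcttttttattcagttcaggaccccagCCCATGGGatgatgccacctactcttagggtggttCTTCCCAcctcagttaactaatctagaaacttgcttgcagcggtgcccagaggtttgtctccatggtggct
Adgrg1 (chr8:94976859-94977108, plus strand): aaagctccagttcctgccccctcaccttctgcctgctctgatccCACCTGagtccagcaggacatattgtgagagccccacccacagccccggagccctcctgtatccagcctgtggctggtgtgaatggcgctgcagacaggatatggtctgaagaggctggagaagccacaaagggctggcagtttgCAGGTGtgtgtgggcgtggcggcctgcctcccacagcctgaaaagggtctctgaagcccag
Tmem98 (chr11:80810116-80810365, plus strand): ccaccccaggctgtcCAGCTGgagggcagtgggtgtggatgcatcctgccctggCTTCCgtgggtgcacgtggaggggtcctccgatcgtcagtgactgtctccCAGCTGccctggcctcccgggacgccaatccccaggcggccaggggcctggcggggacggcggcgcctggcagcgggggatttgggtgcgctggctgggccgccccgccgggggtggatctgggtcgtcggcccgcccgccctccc
Adgrf1 (chr17:43270097-43270346, plus strand): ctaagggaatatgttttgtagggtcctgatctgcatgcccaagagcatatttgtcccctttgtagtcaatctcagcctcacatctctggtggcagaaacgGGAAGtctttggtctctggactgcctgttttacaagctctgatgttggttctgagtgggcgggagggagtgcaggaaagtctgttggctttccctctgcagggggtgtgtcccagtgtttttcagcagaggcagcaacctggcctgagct
The motifs searched were CCCNNGGG (EBF1), CAGGTG and CAGCTG (E-box), TGGGAA (Ikaros), GCGTGAC (Pax5), TTCNNNGAA (STAT5), GGAAG (ETS) and TGTGGT (Runx). The EBF1 letters stood before Myl10 and in 11.8% of the 32851 RefSeq promoters of that length. CAGGTG stood before Adgrg1 (17.2% of promoters), and CAGCTG before Steap4 and Tmem98 (13.0%). The Ikaros letters stood before Steap4 and Myl10 (21.6%) and the STAT5 letters before Steap4 (7.0%). The ETS letters stood before Steap4, Myl10, Tmem98 and Adgrf1, and in 64.1% of promoters. In Steap4 the ETS letters overlap both the CAGCTG and the STAT5 match, and in Myl10 they overlap the Ikaros match. The Pax5 letters (1.8% of promoters) and the Runx letters (14%) were not in these 5 windows, so no motif was shared by all of them. The table of promoters had an entry for 7 of the 8 genes, and Bst1 was not among them.

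Of the membrane genes, Adgrg1 had the highest level in both groups. Adgrg1 (GPR56) is an adhesion G protein-coupled receptor that binds matrix proteins and signals through G proteins, and it spans chromosome 8, 94977109 to 95014208, of mm10. Its preleukemic values were 317, 305, 385 and 392 FPKM and its leukemic values were 99.3, 191 and 158 FPKM. All leukemic samples were lower, but even the lowest was close to 100 FPKM, so the receptor stayed among the well expressed genes. The mean went from 350 ± 45.2 (SD, n = 4) to 150 ± 46.6 FPKM (n = 3), a log2 difference of -1.26. By mean level it ranked 153rd of the 10541 genes in preleukemia and 502nd in leukemia.

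Adgrf1 (GPR110), an adhesion receptor on chromosome 17 (43270347 to 43324406), was far lower in level. It had 6.14, 11.4, 7.60 and 8.52 FPKM in preleukemia, and 0.356, 0.957 and 0.0562 FPKM in leukemia. Every leukemic value was under 1 FPKM and the lowest preleukemic value was 6.42 times the highest leukemic one. The mean of 8.42 ± 2.23 FPKM (n = 4) became 0.456 ± 0.459 FPKM (n = 3), a difference of -2.71. In fragments, for its single annotated transcript, this is about 329 to 601 against 19.9, 53.8 and 3.28, so the value of leukemic sample 3 rests on about 3 fragments.

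Bst1 (CD157) is a glycosylphosphatidylinositol-anchored enzyme of the ADP-ribosyl cyclase family that is found on marrow stromal cells, B-cell precursors and myeloid cells, and it lies on chromosome 5 (43818893 to 43843468). Its preleukemic values were 100.7, 128, 113 and 153 FPKM, and its leukemic values were 5.31, 68.4 and 24.4 FPKM. The leukemic samples disagreed more for Bst1 than for any other of the 8 on the log2(FPKM + 1) scale (SD 1.74 against 0.26 in preleukemia). Leukemic sample 1 held 4.29% of the preleukemic mean and leukemic sample 2 held 55.2%. The mean of 124 ± 22.4 (n = 4) became 32.7 ± 32.4 FPKM (n = 3), a difference of -2.47 that was -1.56 without leukemic sample 1 and -3.29 without leukemic sample 2.

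Steap4, a six-transmembrane metalloreductase that reduces iron and copper for uptake, also lies on chromosome 5 (7960472 to 7982213). It had 21.8, 42.0, 34.2 and 40.7 FPKM in preleukemia and 2.04, 1.18 and 10.4 FPKM in leukemia. Here leukemic sample 3 was the highest, with 29.9% of the preleukemic mean, and sample 2 was the lowest with 3.42%. The mean of 34.7 ± 9.25 (n = 4) became 4.53 ± 5.08 FPKM (n = 3), a difference of -3.03.

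Tmem98, a single-pass membrane protein of the endoplasmic reticulum known to restrain the cleavage of the transcription factor Myrf, lies on chromosome 11 (80810415 to 80822033). It had 11.4, 11.6, 13.9 and 9.92 FPKM in preleukemia and 0.163, 2.32 and 0.207 FPKM in leukemia. The 4 preleukemic samples were close to each other, while leukemic sample 2 alone kept more than 1 FPKM. The mean of 11.7 ± 1.64 (n = 4) became 0.897 ± 1.23 FPKM (n = 3), a difference of -2.92, and leukemic samples 1 and 3 rest on about 3.58 and 4.74 fragments.

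**Figure D1:**
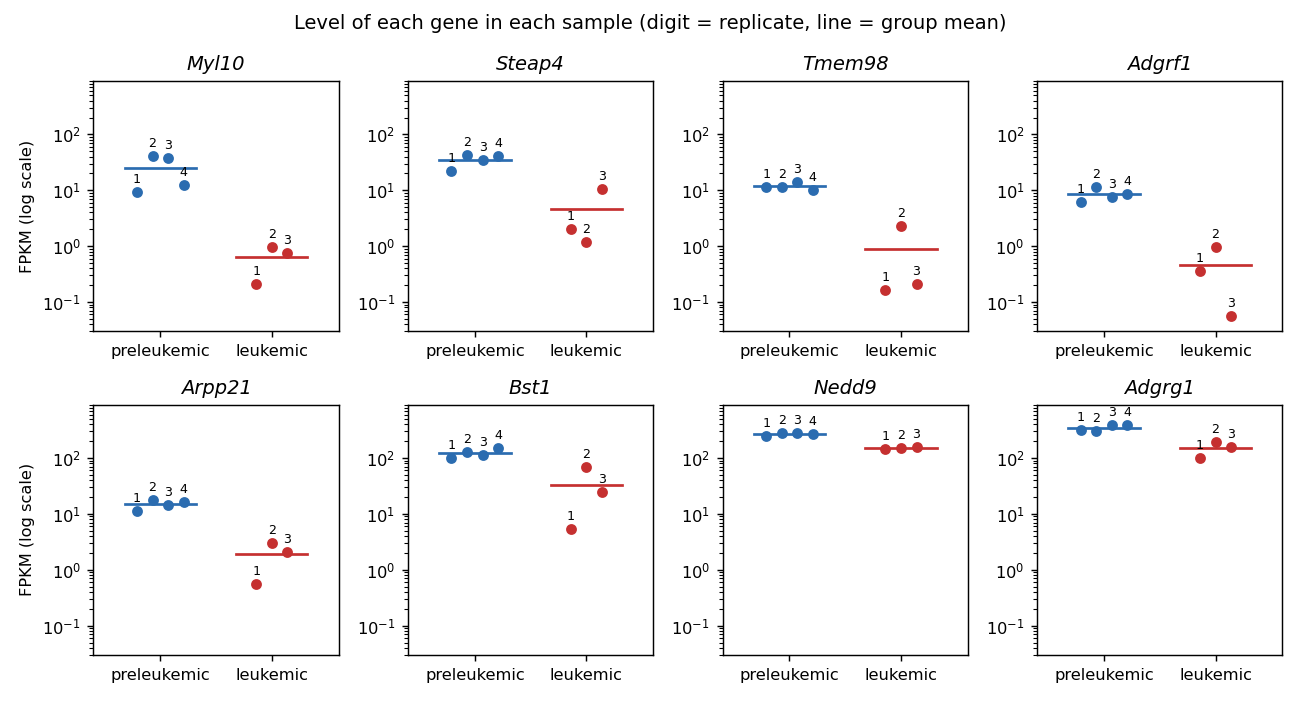
FPKM of the 8 genes in each sample on a shared log axis, with preleukemic samples in blue, leukemic samples in red, replicate digits beside the points and lines at the group means. In every panel the 3 leukemic points lie under the 4 preleukemic points, from a narrow gap for Bst1 (68.4 against 100.7 FPKM at the nearest) to a wide one for Myl10 (0.965 against 9.14 FPKM).

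Inside the cell, Nedd9 showed the smallest and most even difference. Nedd9 (HEF1, Cas-L) is a scaffold of the Cas family that links integrins and focal adhesion kinases to cell movement, and it lies on the minus strand of chromosome 13 (41309916 to 41487360). Its preleukemic values were 243, 282, 278 and 268 FPKM, and its leukemic values were 144, 154 and 158 FPKM. The leukemic samples kept 53.8%, 57.5% and 59.0% of the preleukemic mean, with the smallest ratio of highest to lowest leukemic value of the 8 genes (1.10). The mean of 268 ± 17.5 (n = 4) became 152 ± 7.10 FPKM (n = 3), a difference of -0.81.

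Myl10, a myosin regulatory light chain first described in precursor lymphocytes, lies on chromosome 5 (136693146 to 136701094). It had 9.14, 40.9, 37.1 and 12.3 FPKM in preleukemia and 0.209, 0.965 and 0.766 FPKM in leukemia. Preleukemic samples 2 and 3 stood well above samples 1 and 4, the widest preleukemic spread of the 8 genes, yet the lowest of them was 9.47 times the highest leukemic value. The mean of 24.9 ± 16.5 (n = 4) became 0.646 ± 0.392 FPKM (n = 3), and its difference of -3.74 was the lowest of all 10541 genes.

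Arpp21 encodes a cyclic AMP-regulated phosphoprotein with an R3H domain that binds RNA, and it lies on the minus strand of chromosome 9 (112065091 to 112348925). It had 11.1, 17.8, 14.6 and 16.05 FPKM in preleukemia and 0.557, 3.07 and 2.08 FPKM in leukemia. Leukemic sample 1 was again the lowest, with 3.74% of the preleukemic mean, and sample 2 the highest, with 20.6%. The mean of 14.9 ± 2.83 (n = 4) became 1.90 ± 1.27 FPKM (n = 3), a difference of -2.54.

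The Arpp21 gene holds the hairpin of a microRNA, Mir128-2, whose main product has its seed, bases 2 to 8, in capitals below (RefSeq, chr9:112118644-112118664, minus strand). It is shown because it shares the host transcript.
mmu-miR-128-3p: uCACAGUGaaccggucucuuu
The table lists Mir128-2 at its floor of 0.01 in all 7 samples. The libraries were made from mRNA, so this gives no level of the mature microRNA.

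Among the 1526 genes with at least 5 FPKM in all preleukemic samples and no overlap between groups, 20 had a difference under -2, and 6 of these are among the 8. Myl10, Steap4 and Tmem98 were the 3 lowest, and Adgrf1, Arpp21 and Bst1 were also within the 10 lowest. The other 4 of those 10, named after their values were seen, were Scn4b (-2.83), Fcrl6 (-2.82), Vpreb2 (-2.74) and Sh3gl3 (-2.55). Adgrg1 ranked 76th and Nedd9 191st, so by the size of the difference these do not belong to the strongest falls. They stand out by level: Nedd9 went from rank 214 to 489 and Adgrg1 from 153 to 502, while the other 6 started between ranks 608 and 7480 and ended between 3038 and 10516. Just inside the bound of 5 FPKM stood Adgrf1, with 6.14 FPKM in its lowest preleukemic sample, and the narrowest gap between the groups was that of Bst1, 1.47 times.

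**Figure D2:**
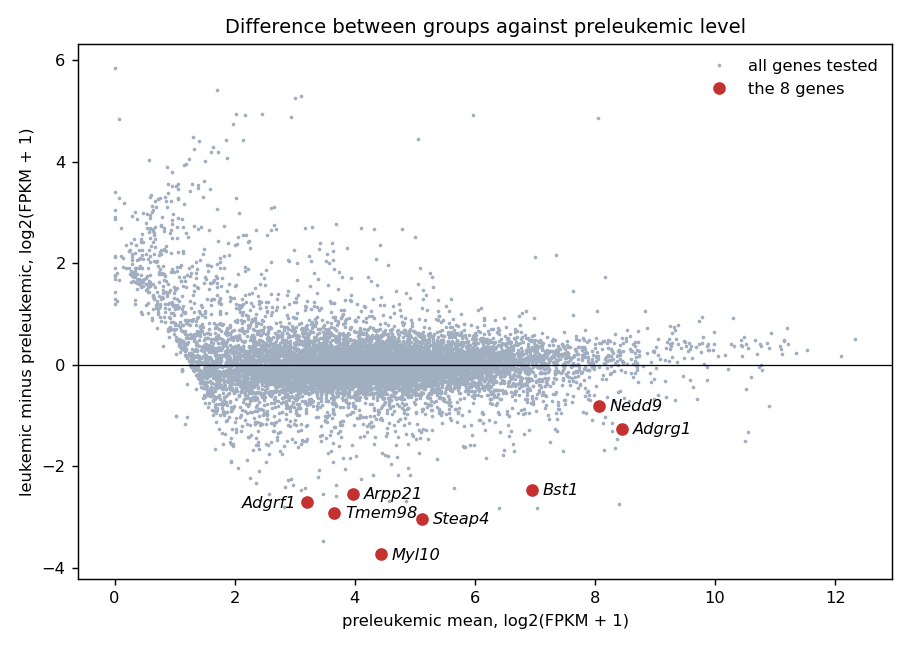
Difference between groups (leukemic minus preleukemic, log2(FPKM + 1)) against the preleukemic mean on the same scale, with a grey point for each of the 10541 genes tested and the 8 genes in red. Myl10 is the lowest point at -3.74, while Nedd9 at -0.81 and Adgrg1 at -1.26 lie to the right, at high levels, closer to the band of all genes.

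The leukemic samples were not low to the same degree. Leukemic sample 1 held the lowest value for 6 of the 8 genes and leukemic sample 2 the highest for 6. Steap4 departed from this order, with its highest value in sample 3 and its lowest in sample 2, and Adgrf1 was lowest in sample 3. Nedd9 was highest in sample 3 as well. Among the preleukemic samples, sample 1 was the lowest for 6 genes and sample 2 the highest for 5.

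Within groups, the 8 genes moved together only in part. Over the 28 pairs of genes, the correlation of deviations from the group means (7 samples, a description that shares library and scaling) had a median of 0.462 and was above 0 for 25. Arpp21 and Bst1 (0.94), Bst1 and Adgrg1 (0.914), Myl10 and Nedd9 (0.857) and Arpp21 and Adgrg1 (0.844) were the 4 highest pairs. Steap4 was the exception, with -0.58 against Tmem98, -0.394 against Adgrf1 and -0.033 against Bst1.

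Among 8769 other genes with a mean of at least 5 FPKM, those whose levels over the 7 samples were most like each gene had Pearson r between 0.977 and 0.999. As the samples form 2 groups, such values follow the gap between them. They were Phc3, Tnfaip3 and Klhl42 for Arpp21, Armcx2, Smim24 and Fcrl6 for Bst1, and Stambpl1, Eif2ak3 and Lman2l for Adgrg1. For Nedd9 they were Dennd1b, Myo9b and Mgea5, for Steap4 Entpd5, Kat6a and Chd6, and for Tmem98 Zdhhc21, Zmynd8 and Cabp4. For Adgrf1 they were Fam120aos, Zkscan8 and Kbtbd4, and for Myl10 Usp42, Mtpap and Zfp935. Taking out the group means, the gene most like Adgrg1 was Vpreb3, one of the listed BCP genes (r = 0.996). That most like Steap4 was Trrap (0.997), and that most like Arpp21 was Rara (0.996). The closest matches of each gene on this measure, 24 in all, had r from 0.945 to 0.997. Vpreb3 was the only listed BCP gene among them. They were picked as the highest of 8769 genes over 7 samples, so nothing is read from a high r.

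The sorted cell type was checked against its markers. The summed level of 16 BCP markers was 6850 to 8570 FPKM in preleukemia and 3758, 5626 and 4632 FPKM in leukemia, or 49.2%, 73.7% and 60.7% of the preleukemic mean, and 4 of the 16 were called lower. Enpep, the gate gene, had 134, 210, 180 and 191 FPKM in preleukemia and 19.1, 102 and 77.2 FPKM in leukemia. Myl10, Tmem98, Arpp21, Bst1, Adgrg1 and Enpep shared the same order, lowest in leukemic sample 1 and highest in sample 2. The mouse gene Ret was listed at 5.63 to 8.35 FPKM in preleukemia and 2.38, 4.59 and 6.63 FPKM in leukemia. These values do not separate the Ret fusion transgene from the mouse's own Ret gene, so they give no level of the transgene.

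Markers of red cell precursors, macrophages, neutrophils and platelets were higher in leukemia. All 10 tested red cell precursor markers were called higher, with sums of 2441 FPKM in preleukemic sample 1, 185 to 238 FPKM in the other preleukemic samples and 5066, 25301 and 12120 FPKM in leukemia. Without preleukemic sample 1, the differences of the 8 genes ran from -4.10 (Myl10) to -0.86 (Nedd9). Sums were 10.3 to 18.2 against 43.6 to 235 FPKM for macrophages (6 of 9 called higher), 148 to 853 against 1405 to 1735 FPKM for neutrophils (4 of 9) and 0.338 to 2.90 against 12.8 to 51.2 FPKM for platelets (4 of 4), where Gp1bb, Pf4 and Ppbp were at the floor in a sample. For T and NK cells the sums were 7.63 to 15.1 against 11.9 to 69.6 FPKM (0 of 6 called), for mature B cells 106 to 179 against 95.7 to 174 (0 of 4) and for plasma cells 140 to 150 against 208 to 253 FPKM (1 of 4 higher). Stromal markers summed to 0.629 to 0.960 against 2.04 to 6.60 FPKM with none tested, and Col3a1, Lepr and Pdgfra were at the floor in a sample. In bulk samples, fewer BCP cells and less RNA per cell cannot be told apart, and the part of these cell types in the lower levels of the 8 genes was not tested.

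Dividing each sample by the geometric mean of its 16 BCP markers moved the median of all genes from -0.02 to 0.69 and split the 8 genes. The markers include Pax5, Ebf1, Igll1 and Vpreb1, which were themselves called lower, and the gate gene Enpep. Cd24a, also a marker, went from 412 to 582 FPKM (limma adjusted p = 0.288). The scaling therefore does not measure the share of BCP cells. Nedd9 then differed by -0.05 and Adgrg1 by -0.50, so the lower level of Nedd9 was about that of the marker mean. The other 6 stayed further below the markers, at -3.29 for Myl10, -2.50 for Tmem98, -2.39 for Steap4, -2.29 for Adgrf1, -2.002 for Arpp21 and -1.74 for Bst1. Against the shifted median of all genes, Nedd9 was at -0.74 and Adgrg1 at -1.19.

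**Figure D3:**
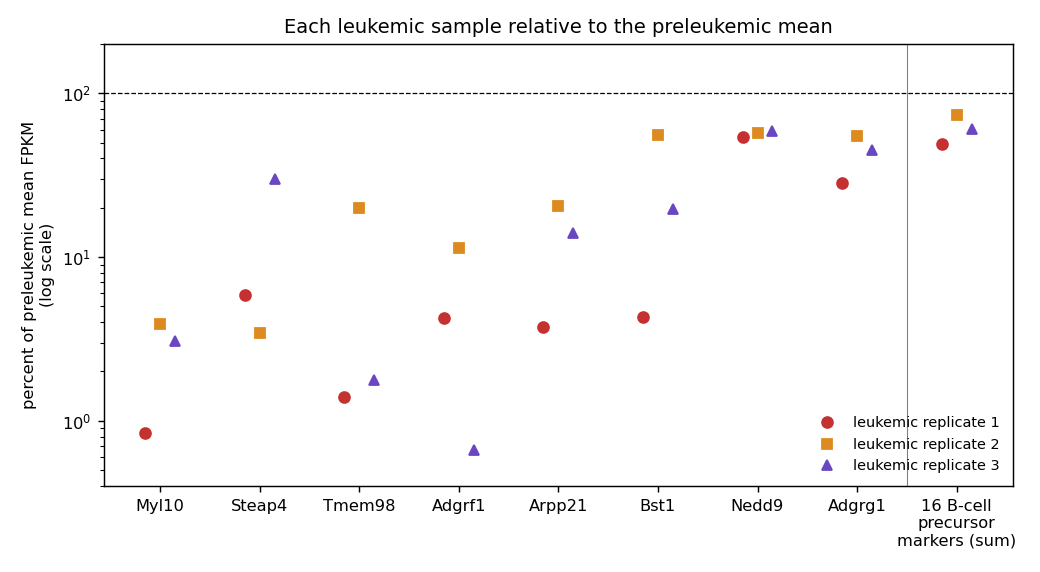
Each leukemic sample as a percent of the preleukemic mean FPKM (log axis, dashed line at the preleukemic mean) for the 8 genes and, at the right, for the sum of 16 B-cell precursor markers. Nedd9 (53.8% to 59.0%) lies at the height of the marker sum (49.2% to 73.7%), and every Myl10 point is under 5% of the preleukemic mean. The sum is weighted to abundant markers such as Igll1 and Vpreb1. Log2 differences of single markers ran from -1.70 (Enpep) to 0.44 (Cd24a).

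Of all genes tested with limma, 6.26% were called lower and 8.47% higher at an adjusted p under 0.05 (Benjamini-Hochberg over 10541 genes), 14.7% together. Against this background, the genes of the same families and pathways as the 8, which were left out of these counts, were called lower about as often as all genes. Of 130 such genes, 127 were in the table and 85 were tested, of which 5 were called lower (5.88%) and 8 higher (9.41%), with a median difference of 0.05 against -0.02 for all genes.

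For the adhesion receptors, 8 relatives of Adgrg1 and Adgrf1 were tested. None was called lower and 2 were called higher: Adgre1, the macrophage F4/80 antigen (0.459 to 4.48 FPKM, difference 1.75, adjusted p = 0.0301), and Adgre4 (0.339 to 4.70 FPKM, 2.08, adjusted p = 0.0073). The macrophage marker sum given above, which includes Adgre1 itself, was higher in the same samples, and the part of macrophages in these values was not tested. The most abundant relative, Adgre5 (CD97), had 73.3 ± 4.72 and 68.8 ± 32.7 FPKM (-0.22, adjusted p = 0.658). The other genes of the Adgrf group were close to the floor, with Adgrf2, Adgrf3, Adgrf4 and Adgrf5 at most 0.363 FPKM in any sample. Of 13 G proteins, arrestins and exchange factors, the route by which such receptors signal, 0 were called lower and Arrb1 was called higher (7.30 to 37.2 FPKM, 2.26, adjusted p = 0.00812). Gnas, which encodes the stimulatory G protein subunit, was the highest at 660 and 687 FPKM (0.05, adjusted p = 0.833).

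Nedd9 was the only gene of its Cas scaffold family at a substantial level, since Bcar1, Efs and Cass4 reached at most 0.962 FPKM. Of 19 Cas partners tested, Sh2d3c, an adaptor that binds Cas proteins, was called lower (40.1 to 27.8 FPKM, -0.53, adjusted p = 0.0425) and 0 were called higher. The small GTPase gene Rap1b was the highest at 124 and 135 FPKM (0.12, adjusted p = 0.252).

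Of 9 iron genes listed for Steap4 and tested, 3 were called higher and 0 lower: Fth1, the ferritin heavy chain (460 to 945 FPKM, 1.06, adjusted p = 0.0136), Tfrc, the transferrin receptor (48.2 to 127 FPKM, 1.30, adjusted p = 0.0334), and Slc40a1, the iron exporter ferroportin (2.15 to 13.4 FPKM, 1.95, adjusted p = 0.0437). Red cell precursors and macrophages are rich in these transcripts, and the marker sums of both were higher in the same samples. The part of these cells in the 3 higher levels was not tested. Steap3 had 33.1 ± 4.06 and 41.9 ± 13.5 FPKM (0.29, adjusted p = 0.327), and Steap1 and Steap2 were listed at 0.01 in every sample, so Steap4 and Steap3 were the family members above the floor.

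For Bst1, 14 genes of NAD+ metabolism were tested, of which Nnt, the mitochondrial transhydrogenase, was called lower (38.3 to 27.7 FPKM, -0.45, adjusted p = 0.0332) and 0 higher. Cd38, the paralog of Bst1 and its neighbour, had 26.7 ± 4.08 and 16.2 ± 10.4 FPKM (-0.85, adjusted p = 0.138), with leukemic sample 2 at 27.99 FPKM, within the preleukemic range. Parp1 was the highest of the list at 115 and 131 FPKM (0.14, adjusted p = 0.622).

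For Myl10, 14 genes of the myosin II machinery were tested. The common regulatory light chains were called higher, Myl12a from 93.4 to 134 FPKM (0.52, adjusted p = 0.0232) and Myl12b from 280 to 392 FPKM (0.47, adjusted p = 0.0352), in contrast to Myl10. Ppp1r12a, a myosin phosphatase subunit (-0.34, adjusted p = 0.0261), and the kinase gene Rock2 (-0.34, adjusted p = 0.0315) were called lower. Of 8 genes listed for Arpp21, R3hdm2 was called lower (-0.29, adjusted p = 0.0446). The partners of Tmem98 could not be tested, with Myrf at most 0.0136 FPKM and Myrfl at most 0.0664 FPKM in any sample.

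Calls were lost whichever 1 sample was left out, and each such fit has fewer samples than the main one. Of the 13 calls among relatives, 2 were kept without preleukemic sample 4, 3 without sample 2, 4 without sample 3, 5 without sample 1, and 10, 8 and 6 without leukemic samples 1, 2 and 3. Adgre4 and Arrb1 were kept in each of these fits. Over all genes, limma called 1553 in the main fit and 157 without preleukemic sample 4. Genes at an unadjusted limma p under 0.05 numbered 3586 and 2645 in these 2 fits. Lost calls therefore do not show that a result rests on a particular sample.

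**Figure D4:**
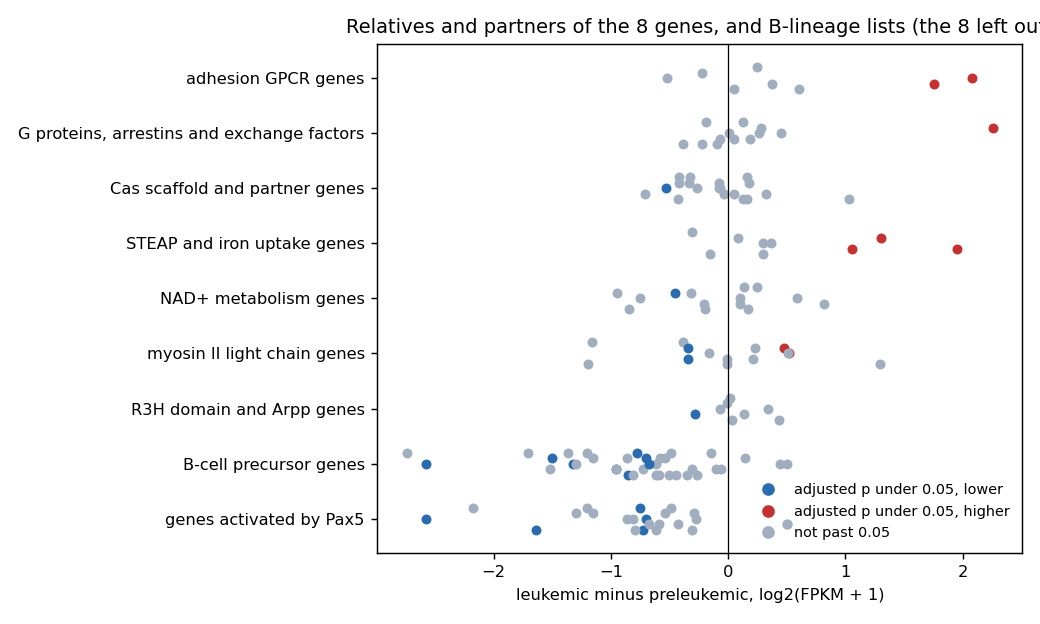
Difference between groups (leukemic minus preleukemic, log2(FPKM + 1)) of each tested gene, by list, with the 8 genes left out and colours for genes past an adjusted p of 0.05. The relatives scatter around 0, with 5 lower and 8 higher of 85, while 33 of 36 B-cell precursor genes and 21 of 23 genes activated by Pax5 lie left of 0.

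The genes of the cell type itself did lie lower. Of 36 BCP genes, 33 had a difference below 0, with a median of -0.68, and 8 were called lower (22.2%) and 0 higher. The largest called were Blk, a B-cell Src kinase (13.9 to 1.26 FPKM, -2.58, adjusted p = 0.0236), and the surrogate light chain genes Vpreb1 (1448 to 558 FPKM, -1.50, adjusted p = 0.0226) and Igll1 (1493 to 637 FPKM, -1.32, adjusted p = 0.0244). Bst1 and Nedd9 were listed by hand as genes activated by Pax5. Of the other 23 in that list, 21 had a difference below 0, with a median of -0.70, and 5 were called lower (21.7%) and 0 higher, the largest being Blk, Cplx2 (-1.64, adjusted p = 0.0341) and Siglecg (-0.75, adjusted p = 0.0218). Without preleukemic sample 4, and likewise without sample 3, 1 of the 8 BCP calls was kept, and without sample 2, 2 were kept. For Pax5, 2 of the 5 calls were kept without any of those samples in turn.

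None of the nearest tested genes was called lower, but their gaps ran from 3.5 kb (Adgrg3 from Adgrg1) to 2401 kb (Gtpbp10 from Steap4). Tmem132e lies 1567 kb from Tmem98, and Epm2aip1 and Pdcd6ip lie 786 and 1303 kb from Arpp21. As 6.26% of all genes tested were called lower, none among 16 says little about the neighbours. Of the 16 nearest tested genes, 1 on each side of each gene, 1 was called, and it was higher: Myo1d, 30.4 kb from Tmem98, went from 0.327 to 3.11 FPKM (1.62, adjusted p = 0.0238). Tmem132e on the other side of Tmem98 differed by -0.35 (adjusted p = 0.445). The neighbours of Myl10 were Cux1 (-0.15, adjusted p = 0.573) and Ift22 (-0.21, adjusted p = 0.265), and those of Steap4 were Gtpbp10 (-0.17, adjusted p = 0.363) and Sri (-0.15, adjusted p = 0.496). Beside Bst1 lie Fbxl5 (-0.40, adjusted p = 0.0636) and Cd38. Beside Adgrg1 lie Polr2c (0.09, adjusted p = 0.546) and, 3.5 kb away, the related receptor gene Adgrg3 (37.4 ± 20.7 and 52.6 ± 36.0 FPKM, 0.25, adjusted p = 0.814).

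Adgrf1 and Arpp21 were lower on chromosomes whose genes were on the whole higher. On chromosome 17, with Adgrf1, the median difference of 592 genes was 0.35, with 199 called higher and 3 lower, and on chromosome 9, with Arpp21, it was 0.22 over 596 genes, with 78 higher and 7 lower. The neighbours of Adgrf1, Tnfrsf21 (0.22, adjusted p = 0.168) and Pla2g7 (-0.12, adjusted p = 0.760), and those of Arpp21, Epm2aip1 (0.08, adjusted p = 0.648) and Pdcd6ip (0.08, adjusted p = 0.627), were not called. The medians of chromosomes 5, 8, 11 and 13, which hold the other 6 genes, lay between -0.07 and -0.01. The neighbours of Nedd9 on chromosome 13 were Smim13 (-0.09, adjusted p = 0.625) and Tmem170b (-0.26, adjusted p = 0.259).

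**Figure D5:**
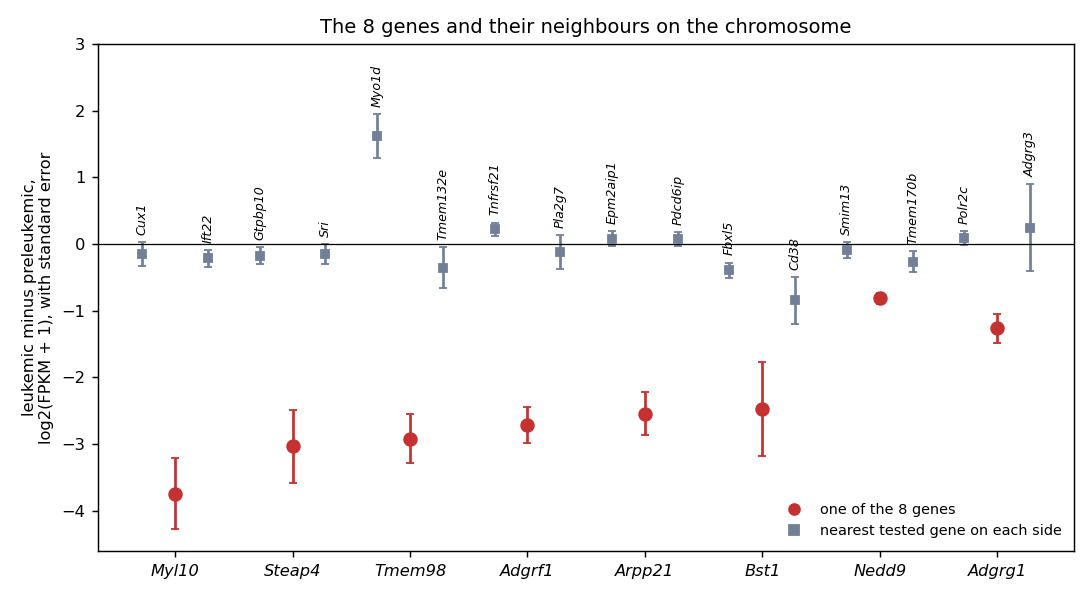
Difference between groups (leukemic minus preleukemic, log2(FPKM + 1), with its standard error) of each of the 8 genes (red) and of the nearest tested gene on each side (grey). Each red point lies under both of its neighbours, closest for Nedd9 (-0.81, with Tmem170b at -0.26) and then Adgrg1 (-1.26, with Polr2c at 0.09), and Myo1d beside Tmem98 stands highest at 1.62.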

How the data were processed

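The authors deposited 1 table of FPKM values per gene and sample. Per the labels, BCP cells were sorted from spleen and stranded mRNA libraries were made, and in the submitters' processing notes the authors name STAR 2.5.0b, bedtools 2.17.0, Cufflinks 2.2.1, Bowtie and DESeq2, with the build mm10 and no roles given. The authors' methods describe DESeq2 on counts. FPKM are not counts, so group differences on log2(FPKM + 1) were tested in R 4.3.3 with limma 3.58.1, with a variance trend on intensity and no covariates. Genes entered when their FPKM added up to 10 or more across the 7 samples (10541 genes), with Benjamini-Hochberg adjustment. Each sample was taken as a separate mouse. The sample titles give a replicate number and no mouse identifier, and no pair of samples shared more than 1 equal value.

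The 8 genes and the gene lists were chosen with earlier results of these data known. Named were the 8 genes, the called genes and the most abundant gene of each family list, the 3 largest called rises and falls of the BCP and Pax5 lists, the nearest tested gene on each side, and the 3 genes most like each of the 8. Of genes most like the 8 within groups, those for 3 of the 8 are given. The family and marker lists were written by hand.

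On simulated data for the 10541 genes, 149 of 200 genes lowered by 1 log2 unit were called, with 10 false calls, and 192 of 200 lowered by 2, with 15 false calls. The lowered genes were drawn from those with higher mean levels, and both groups were given the same spread. In the data, genes such as Bst1 and Steap4 spread more in leukemia, so these rates do not describe such genes or low ones. Depth was read from genes with 1 transcript of at least 1500 bases (2243 genes), where 73.5% to 79.4% of low values were whole fragments within 0.08. Fragment numbers cover counting error only. Gene positions were taken from the deposited table (mm10), and sequences are from RefSeq (GRCm38.p6). Alternatives were a pseudocount of 0.1, no filter, quantile normalization, scaling to BCP markers, leaving out each sample and a replicate block. Another scaling rests on a gene not reported here and was left out for that reason, not for its outcome. Python 3.11.15 was used for the rest.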

Additional observations from a re-analysis of the deposited data

Results flagged for a closer look

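In 47 genes whose 4 preleukemic values were examined for a sample far from the other 3, 3 stood out by Dixon's test at 95%, where chance gives about 1 in 20. None of the 8 genes was among them. Rap1b, a Cas partner gene, had 117.276 FPKM in preleukemic sample 2 against 126 to 127 FPKM in the others. Gtpbp10, a nearest tested gene of Steap4 at 2401 kb, had 3.85833 FPKM in preleukemic sample 3 against 4.34 to 4.403 FPKM. Myo1d, beside Tmem98, had 0.921621 FPKM in preleukemic sample 1, the sample with the highest preleukemic red cell marker sum, against 0.0711 to 0.196 FPKM in the others, and the part of other cells in this value was not tested.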

How the results depend on the processing

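The differences of the 8 genes stayed below 0 under every alternative given here. With a pseudocount of 0.1, Myl10 was at -4.96, Tmem98 at -4.33, Adgrf1 at -4.30 and Arpp21 at -3.16, and with quantile normalization Nedd9 was at -0.92. Scaled to BCP markers, Adgrf1 was at -2.29, Arpp21 at -2.002, Adgrg1 at -0.50 and Nedd9 at -0.048. Leaving out 1 sample gave -4.10 to -3.42 for Myl10, -3.75 to -2.56 for Steap4, -3.41 to -2.65 for Tmem98, -2.95 to -2.50 for Adgrf1, -2.84 to -2.15 for Arpp21, -3.29 to -1.56 for Bst1, -0.86 to -0.77 for Nedd9 and -1.46 to -0.99 for Adgrg1.

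Counts of calls moved more. Over all genes, 660 were called lower and 893 higher. The counts were 99 and 6884 when scaled to BCP markers. Leaving out 1 sample gave 44 to 752 lower and 113 to 873 higher, both lowest without preleukemic sample 4. They were 73 and 206 without preleukemic sample 3, 158 and 310 without sample 2, and 328 lower without sample 1. Among relatives of the 8 genes the counts, 5 lower and 8 higher, became 0 and 55 with BCP scaling, and 8 lower with quantile normalization, and leaving out 1 sample gave 0 to 5 and 2 to 11. Of the 36 BCP genes, 8 lower and 0 higher became 14 lower with quantile normalization, 4 and 5 with BCP scaling, and 1 to 14 and 0 to 1 on leaving out 1 sample. For the Pax5 list, 5 lower and 0 higher became 10 lower with quantile normalization, 1 and 1 with BCP scaling, and 2 to 11 and 0 to 1 on leaving out 1 sample. The cause of these changes was not tested.

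With BCP scaling, which moved the median of all genes from -0.02 to 0.69, the sign turned for 9 named genes that were called before or after it: Sh2d3c (0.22), Nnt (0.30), Ppp1r12a (0.41), Rock2 (0.40), R3hdm2 (0.45), Siglecg (0.0046), Ift22 (0.53), Sri (0.60) and Pla2g7 (0.64). It turned for 7 others (Adgre5, Cux1, Gtpbp10, Tmem132e, Fbxl5, Smim13 and Tmem170b) that were called in neither, which went from below to above 0. Same-numbered samples of the groups were taken as different mice. Their deviations correlated at 0.029, 0.05 and -0.092, so they were treated as sharing only a number. The replicate block was fitted without preleukemic sample 4, which has no leukemic sample of its number, and left few degrees of freedom. In that fit limma called 0 genes lower and 0 higher over all genes and in each list (2413 genes at an unadjusted p under 0.05). The 8 differences kept their sign. Values of leukemic Adgrf1 and Tmem98 rest on few fragments, down to 3.28 and 3.58.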
